A study of Mus musculus with 8 samples.

Results

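The genes described here are 40 genes of the endoplasmic reticulum (ER) folding machinery and the unfolded protein response, chosen by symbol, current or older, from a fixed list. Of these, 34 had a probe on the array among 16590 genes, and 28 were detected well enough to be tested among 9502 genes. Transcript levels were measured on Illumina bead arrays in mouse embryonic fibroblasts (MEFs) that are Trp53-/- and Dnmt1+/+ in both groups. Every sample thus lacks the tumour suppressor p53 and carries the unmutated gene of the maintenance DNA methyltransferase Dnmt1. The amount of Dnmt1 protein was not measured on these arrays. One group was treated for 72 h with 5-aza-dC, a cytidine analogue that inhibits DNA methylation once it is built into DNA. The labels give a dose of 1 µM. The dose in the study's methods is lower, and it was not settled which of them the arrays received. The control group received the DMSO vehicle for the same time. Each group has 2 biological replicates with 2 technical arrays each, 8 arrays in all, all from the same starting population of a MEF line per the study. The sources do not state whether the replicates were separate cultures or whether the line is a single clone, so the p-values measure the spread between these samples only.

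Proteins that enter the secretory pathway are threaded into the ER through the Sec61 translocon, held by the Hsp70 protein BiP and its J-protein partners, given disulfide bonds by protein disulfide isomerases, and checked on their sugar chains by lectin chaperones. Chains that fail to fold are sent back to the cytosol for degradation, a route called ER-associated degradation. When unfolded chains build up, the membrane sensors Atf6, Ern1 (IRE1) and Eif2ak3 (PERK) switch on the unfolded protein response, in which Atf6 and the spliced product of Xbp1 act at short promoter elements of chaperone and degradation genes. Fibroblasts carry a high folding load because they secrete collagen, and several of the prolyl isomerases here act on it.

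The promoter elements of the response are given first, because they group the genes by reference sequence and not by array values. The genes and the tests, though, were chosen with earlier results of these data known. In RefSeq promoter windows (build GRCm38.p6) around the annotated start sites, available for 33 of the 40 genes, 4 letter patterns were searched on both strands. The ER stress element, CCAAT and CCACG separated by any 9 bases, was found in the windows of 9 genes, 27.3% of the 33, against 0.137% of the 27025 genes with a window. It was in Hspa5, Hsp90b1, Dnajc3, Calr, Canx, Pdia6, Creld2, Syvn1 and Derl3. ER stress element II, ATTGG and CCACG separated by any 1 base, was in Dnajb11 and Herpud1, 6.06% of the genes against 0.0444% of all genes. The unfolded protein response element TGACGTGG was found in 0 of the 33 genes and in 0.714% of all genes, and the ATF4 type element TTGCATCA in Herpud1 alone, 3.03% against 1.03%. The patterns do not overlap one another in Herpud1, the only gene with both kinds. A match is a match of letters and does not show that a factor binds there. No mismatch was allowed and only these windows were searched, so lack of a match does not show that a gene has no element. The genes were listed for their part in ER folding and this response, so the higher shares are a description and not a test.

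The stretches that hold these elements are printed for the 8 genes that were also tested on the array, so that the elements can be set against the fold changes given further on. Each runs 5′ to 3′ along the strand of the gene, with the ends of the element in capitals, which appear as CGTGG and ATTGG where the element lies on the opposite strand.
Hspa5 (chr2:34772000-34772068, plus strand): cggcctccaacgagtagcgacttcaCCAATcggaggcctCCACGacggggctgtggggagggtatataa
Hsp90b1 (chr10:86705508-86705681, minus strand): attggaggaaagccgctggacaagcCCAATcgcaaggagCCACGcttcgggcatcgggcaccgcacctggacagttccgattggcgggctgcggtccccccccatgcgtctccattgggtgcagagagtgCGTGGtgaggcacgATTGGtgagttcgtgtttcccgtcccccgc
Dnajc3 (chr14:118937802-118937870, plus strand): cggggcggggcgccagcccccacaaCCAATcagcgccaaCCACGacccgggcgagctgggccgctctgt
Calr (chr8:84847050-84847118, minus strand): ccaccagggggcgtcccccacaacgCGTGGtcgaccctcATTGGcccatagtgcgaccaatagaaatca
Pdia6 (chr12:17266466-17266534, plus strand): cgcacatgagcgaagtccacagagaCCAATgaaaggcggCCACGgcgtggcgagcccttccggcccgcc
Creld2 (chr15:88819495-88819563, plus strand): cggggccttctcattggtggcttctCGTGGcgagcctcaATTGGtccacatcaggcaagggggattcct
Syvn1 (chr19:6046507-6046575, plus strand): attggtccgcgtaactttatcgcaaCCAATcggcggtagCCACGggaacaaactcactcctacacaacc
Herpud1 (chr8:94386352-94386412, plus strand): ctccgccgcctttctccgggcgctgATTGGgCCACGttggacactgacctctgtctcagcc
In Hspa5 the element lay at positions -65 to -47 from the start site and in Hsp90b1 there were 2 copies, at -212 to -194 and, on the opposite strand, at -107 to -89. In Creld2 it lay at -126 to -108 and in Calr at -162 to -144, both on the opposite strand. In Dnajc3 it lay at -105 to -87, in Pdia6 at -98 to -80 and in Syvn1 at -44 to -26. The element II of Herpud1 lay at -52 to -42 and its ATF4 type element further upstream, at -112 to -105.

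With 5-aza-dC the 28 genes moved in both directions. Of these, 8 were higher (28.6%) and 9 were lower (32.1%) at an adjusted p under 0.05, and 11 did not pass (limma with Benjamini-Hochberg adjustment over all genes tested). Among all 9502 genes, 52.0% were called, 26.3% higher and 25.7% lower, against 60.7% of the ER genes. Unadjusted p was under 0.05 for 9 genes with higher and 10 with lower values. The median log2 fold change, 5-aza-dC minus control, was 0.06 over the ER genes and -0.02 over all genes, and the median size of change without regard to direction was 0.50 over the ER genes and 0.41 over all genes. Changes above 2-fold that passed the test were seen in 1 gene that rose and 3 that fell, 14.3% of the ER genes against 15.5% of all. The replicates of the groups did not overlap in 22 genes, 78.6%, against 76.5% of all genes tested, so the ER genes as a list were close to the background in how often they differed. All 28 were detected on all 8 arrays at the probe used.

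**Figure D1:**
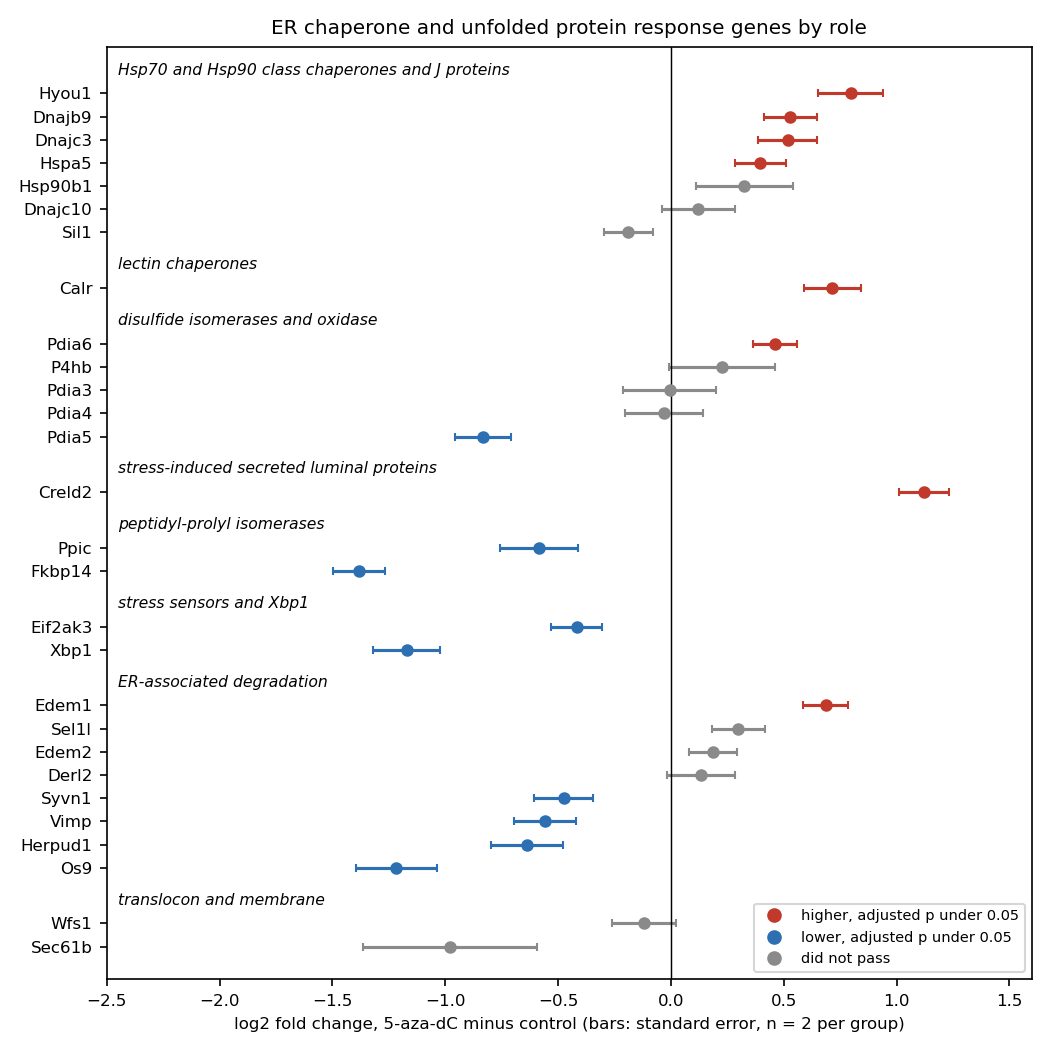
The log2 fold change of each of the 28 genes, 5-aza-dC minus control, on the horizontal axis, grouped by role, with bars of 1 standard error from the limma fit (n = 2 replicates a group) and colour for genes called higher, lower or neither. The values run between -1.38 for Fkbp14 and 1.12 for Creld2, with the chaperones mostly to the right of 0 and the degradation genes on both sides.

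The ER genes are taken by role below. Each role holds few genes, and its counts stand beside 26.3% called higher and 25.7% lower over all genes tested. No role was tested as a group. Of the Hsp70 and Hsp90 class chaperones and their J-protein partners, 7 were tested, 4 rose, 0 fell and 3 did not pass, with a median log2 fold change of 0.40. Hyou1 (GRP170), which exchanges the nucleotide bound to BiP, rose 1.74-fold. Its log2 level, the background-corrected and quantile-normalised signal on the log2 scale, was 6.85 and 6.76 on the arrays of 5-aza-dC replicate 1 and 7.14 and 7.14 on those of replicate 2, against 6.38 and 6.14 in control replicate 1 and 6.10 and 6.08 in control replicate 2. All 4 treated arrays lay above all 4 control arrays, and the change was 0.80 ± 0.14 on the log2 scale (SE, adjusted p = 0.00565, limma).
Hspa5, the gene of BiP itself, gave a smaller change of 0.40 ± 0.11 (1.32-fold, adjusted p = 0.0281, limma). Its levels were 7.44, 7.82, 7.39 and 7.67 with 5-aza-dC and 7.20, 7.33, 7.04 and 7.16 in the controls, and every treated array was above every control array. Dnajb9 (ERdj4), a J protein that brings BiP clients towards degradation, had levels of 8.93, 8.98, 8.66 and 8.83 with 5-aza-dC and 8.20, 8.44, 8.25 and 8.39 in the controls, again without overlap. Its change was 0.53 ± 0.12 (1.44-fold, adjusted p = 0.0118, limma), and its other probe was undetected on all arrays. Dnajc3 (p58IPK), a J protein that also restrains Eif2ak3, rose by 0.52 ± 0.13 (adjusted p = 0.0193, limma). The calls of Hspa5, Dnajb9 and Dnajc3 were lost when control replicate 1 (adjusted p = 0.1001, 0.0950 and 0.108) or control replicate 2 (0.272, 0.0945 and 0.0949) was left out. Hspa5 also lost its call with the replicate block (adjusted p = 0.0719), with median scaling (0.0880) and with technical arrays entered singly (0.0592).

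Hsp90b1 (GRP94), the Hsp90 of the ER, did not pass (0.32 ± 0.22, adjusted p = 0.255, limma). Its levels were 13.21 and 13.27 in 5-aza-dC replicate 1 but 12.77 and 12.74 in replicate 2, against 12.59, 12.63, 12.66 and 12.81 in the controls. Replicate 1 stood above the controls and replicate 2 lay within their range. The log2 fold change of Hsp90b1 was 0.57 without 5-aza-dC replicate 2, but 0.12 with median scaling in place of quantile normalisation. Dnajc10 (ERdj5), a J protein with disulfide reductase activity, had a log2 fold change of 0.12 (adjusted p = 0.563) and Sil1, another exchange factor for BiP, one of -0.19 (adjusted p = 0.196).

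Calr (calreticulin), the soluble lectin chaperone that holds proteins with trimmed sugar chains, rose 1.64-fold. Its levels were 10.69, 10.59, 10.45 and 10.44 with 5-aza-dC and 9.83, 9.73, 9.93 and 9.81 in the controls. The groups were apart by more than the spread within either, with a change of 0.72 ± 0.13 (adjusted p = 0.00534, limma), though without control replicate 1 the adjusted p was 0.0757. Its membrane-bound counterpart Canx (calnexin) was not detected on any array and was not tested.

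Creld2, a protein of the ER lumen that is secreted on ER stress, showed the highest fold change of the 28 genes, 2.18-fold. Its levels were 10.20, 10.27, 10.36 and 10.29 with 5-aza-dC and 9.15, 9.17, 9.13 and 9.18 in the controls. The arrays of each group differed from one another by far less than the groups did, and the change was 1.12 ± 0.11 (adjusted p = 0.000623, limma). Its pair of probes gave log2 fold changes of 1.12 and 1.19. Manf, the other stress-induced luminal protein of the list, was undetected on all arrays.

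The disulfide isomerases did not move together. Of 5 tested, 1 rose, 1 fell and 3 did not pass, with a median log2 fold change of -0.01. Pdia6 rose by 0.46 ± 0.10 (adjusted p = 0.0107, limma), with replicate means of 7.99 and 8.02 with 5-aza-dC and 7.57 and 7.52 in the controls, but it did not pass without control replicate 1 (adjusted p = 0.101) or control replicate 2 (0.132). Pdia5 fell, with levels of 9.21, 9.14, 8.98 and 8.95 in treated cells and 9.86, 9.85, 9.93 and 9.98 in control cells. The groups did not overlap, the change was -0.83 ± 0.13 (1.78-fold lower, adjusted p = 0.00281, limma), and its 3 probes all fell, with log2 fold changes of -0.91 to -0.79.

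P4hb, the founding disulfide isomerase and a subunit of collagen prolyl hydroxylase, Pdia3, which works with the lectin chaperones, and Pdia4 differed more between the treated replicates than between the groups. P4hb had replicate means of 13.69 and 13.20 with 5-aza-dC and 13.11 and 13.33 in the controls (0.23 ± 0.23, adjusted p = 0.458, limma). Pdia3 had 12.26 and 11.80 with 5-aza-dC and 11.93 and 12.14 in the controls (adjusted p = 0.986). Pdia4 had 10.36 and 9.99 with 5-aza-dC and 10.08 and 10.33 in the controls (adjusted p = 0.897). In all 3 genes, as in Hsp90b1, Dnajc10 and most of the other tested ER genes, 5-aza-dC replicate 1 was above replicate 2. The log2 fold change of P4hb was 0.47 without 5-aza-dC replicate 2, but 0.02 with median scaling in place of quantile normalisation.

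**Figure D2:**
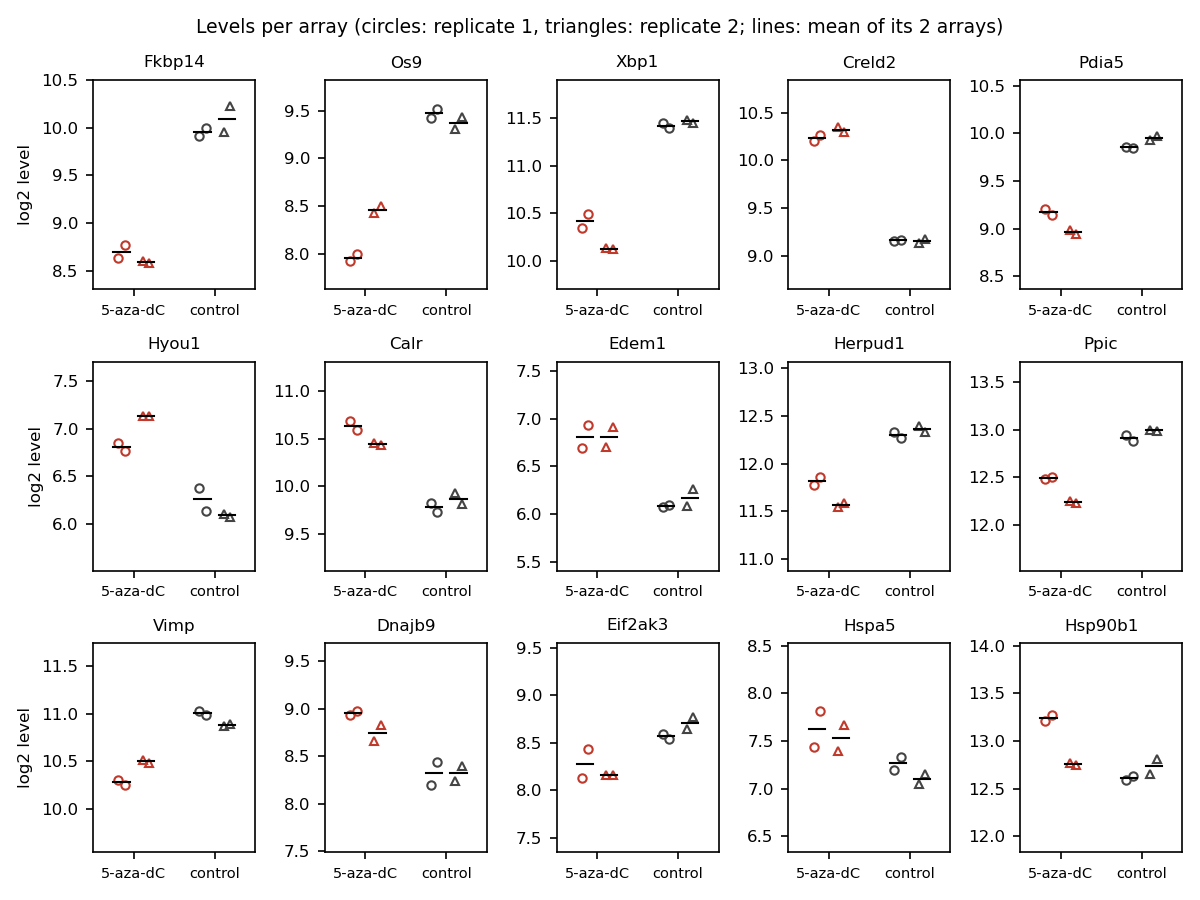
Log2 levels on each array for 15 of the ER genes, 5-aza-dC to the left of control, with circles for replicate 1, triangles for replicate 2 and a line at the mean of the technical arrays of each. Creld2, Calr and Hyou1 are higher and Fkbp14, Os9 and Xbp1 lower on all 4 treated arrays than on any control array, while the treated replicates of Hsp90b1 differ from each other.

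Both prolyl isomerases that were tested fell. Fkbp14, an FK506-binding protein that acts on collagen, had the lowest fold change of the list. Its levels were 8.63, 8.77, 8.60 and 8.58 with 5-aza-dC and 9.92, 10.002, 9.96 and 10.23 in the controls, and no treated array came near the controls. The change was -1.38 ± 0.12 (2.61-fold lower, adjusted p = 0.000365, limma). Ppic (cyclophilin C) had levels of 12.48, 12.50, 12.26 and 12.24 with 5-aza-dC and 12.94, 12.88, 12.998 and 12.99 in the controls, without overlap. Its change was smaller, -0.58 ± 0.17 (1.5-fold lower, adjusted p = 0.0324, limma), and both its probes fell. The call of Ppic was lost without control replicate 1 (adjusted p = 0.247), without control replicate 2 (0.318), with the replicate block (0.161) and with no detection filter (0.0797). Ppib and Fkbp10, the other prolyl isomerases of the list, had no listed probe.

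Of the sensors and Xbp1, only Xbp1 and Eif2ak3 could be tested, and both fell. Xbp1, the transcription factor whose RNA is spliced by Ern1 to give its active form, had levels of 10.34, 10.50, 10.13 and 10.12 with 5-aza-dC and 11.45, 11.39, 11.48 and 11.45 in the controls. The control arrays were nearly identical and all lay above the treated ones, with a change of -1.17 ± 0.15 (2.25-fold lower, adjusted p = 0.0015, limma). The splicing of Xbp1 RNA was not analysed here. Eif2ak3, the kinase that slows translation in ER stress, had levels of 8.13, 8.43, 8.16 and 8.16 with 5-aza-dC and 8.60, 8.54, 8.64 and 8.77 in the controls. These did not overlap but lay close together, and the change was -0.42 ± 0.11 (1.34-fold lower, adjusted p = 0.0237, limma). It was lost without control replicate 1 (adjusted p = 0.111), without control replicate 2 (0.243) and with the replicate block (0.0770). Atf6 had no listed probe and Ern1 was undetected on all arrays.

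Among 8 tested genes of ER-associated degradation 1 rose, 4 fell and 3 did not pass, with a median log2 fold change of -0.17. The gene that rose was Edem1, which removes mannose from misfolded glycoproteins and so marks them for removal. Its levels were 6.69, 6.93, 6.71 and 6.91 with 5-aza-dC and 6.07, 6.09, 6.08 and 6.26 in the controls. The groups did not overlap, and the change was 0.69 ± 0.10 (1.61-fold, adjusted p = 0.00242, limma). The other probe of Edem1 was undetected on all arrays. Its relative Edem2 had a log2 fold change of 0.19 (adjusted p = 0.196), and its 4 probes gave values of 0.11 to 0.34.

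Os9, the lectin that reads that mannose mark and hands the substrate to the ubiquitin ligase, fell. Its levels were 7.92 and 7.99 in 5-aza-dC replicate 1 and 8.42 and 8.50 in replicate 2, against 9.43, 9.52, 9.31 and 9.44 in the controls. Although the treated replicates differed, both lay below the controls, with a change of -1.22 ± 0.18 (2.32-fold lower, adjusted p = 0.00268, limma). Herpud1, a membrane protein that organises the degradation complex, had levels of 11.78, 11.86, 11.55 and 11.59 with 5-aza-dC and 12.33, 12.27, 12.40 and 12.33 in the controls. All treated arrays were lower, the change was -0.64 ± 0.16 (1.56-fold lower, adjusted p = 0.0186, limma), and its pair of probes gave log2 fold changes of -0.66 and -0.64.

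Vimp (now Selenos), a selenoprotein that draws the ATPase p97 to the membrane, had levels of 10.30, 10.25, 10.52 and 10.48 with 5-aza-dC and 11.03, 10.98, 10.87 and 10.89 in the controls. The groups did not overlap, the change was -0.56 ± 0.14 (1.47-fold lower, adjusted p = 0.0182, limma), and both its probes fell. Syvn1 (HRD1), the ubiquitin ligase at the centre of the complex, fell by 0.48 on the log2 scale (SE 0.13, adjusted p = 0.027, limma), with replicate means of 10.47 and 10.31 with 5-aza-dC and 10.79 and 10.94 in the controls. Without control replicate 1 the adjusted p of Herpud1, Vimp and Syvn1 was 0.163, 0.197 and 0.152, without control replicate 2 it was 0.206, 0.111 and 0.286, and with the replicate block it was 0.0860, 0.0637 and 0.111.

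Sel1l, the partner that holds Syvn1 in place, did not pass (0.30 ± 0.12, adjusted p = 0.0802, limma), and it was the one gene whose probes differed in sign. Its 3 kept probes gave log2 fold changes of -1.08 to 0.30, with 1 of them called lower, and the mean of the probes gave -0.27 (adjusted p = 0.0496). Derl2, a derlin of the exit channel, had a log2 fold change of 0.13 (adjusted p = 0.494), and Derl1 and Derl3 were undetected on all arrays. Of the 10 ER genes with more than 1 kept probe, 5 had every probe called in 1 direction and 0 had probes called in opposite directions.

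**Figure D3:**
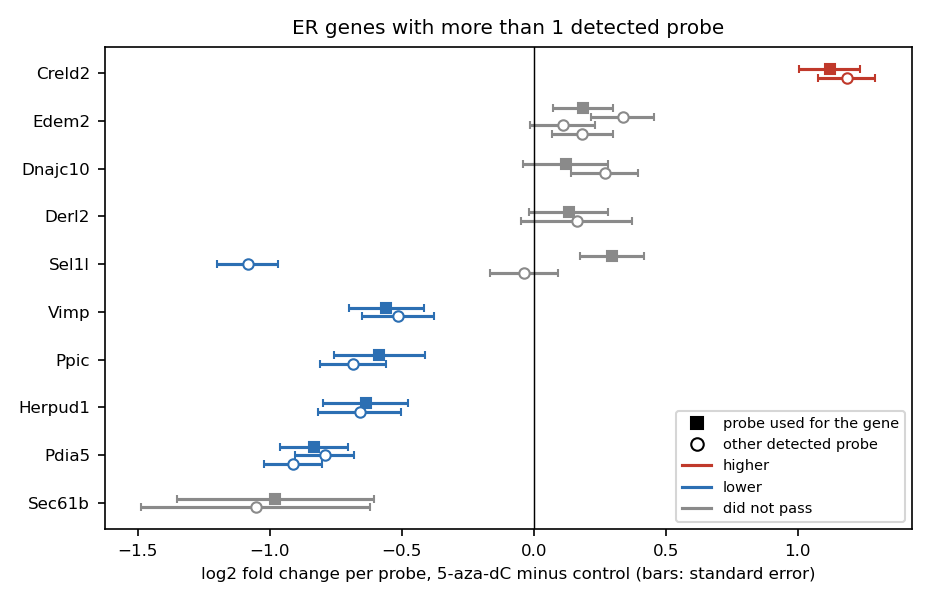
Log2 fold changes, 5-aza-dC minus control, of every kept probe of the 10 ER genes with more than 1, with bars of 1 standard error, colour for the call and a square for the probe used. The probes of Creld2, Pdia5, Herpud1, Ppic and Vimp lie on 1 side of 0 and pass the test, and those of Sel1l lie on both sides.

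Neither tested gene of the translocon and ER membrane passed. Sec61b, a small subunit of the translocon, had levels of 8.44 and 8.34 in 5-aza-dC replicate 1 and 9.58 and 9.57 in replicate 2, against 10.18 and 10.20 in control replicate 1 and 9.72 and 9.75 in control replicate 2. Both treated replicates were below both controls, but the treated replicates differed from each other by more than 1 on the log2 scale, and the change was -0.98 ± 0.39 (adjusted p = 0.0799, limma). The log2 fold change of Sec61b was -1.57 without 5-aza-dC replicate 2 and -1.21 without control replicate 2, but -0.39 without 5-aza-dC replicate 1. It passed with the replicate block (adjusted p = 0.00552, limma). Wfs1, the ER membrane protein named for Wolfram syndrome, had a log2 fold change of -0.12 (adjusted p = 0.515), and Ssr1, a subunit of the translocon-associated complex, was undetected.

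In all, 12 of the 40 genes gave no test. Dnajb11, Sdf2l1, Ero1l (now Ero1a), Ppib, Fkbp10 and Atf6 had no listed probe, and Canx, Manf, Ern1, Derl1, Derl3 and Ssr1 had probes that were undetected on all 8 arrays, which leaves their change unknown.

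Set against the promoter elements printed above, the 8 tested genes with an ER stress element or element II had a median log2 fold change of 0.43. Of these, 5 rose (Creld2, Calr, Dnajc3, Pdia6 and Hspa5), 2 fell (Herpud1 and Syvn1) and Hsp90b1, the gene with 2 copies, did not pass, against 26.3% higher and 25.7% lower over all genes tested. Of the calls among these 8 genes, only that of Creld2 held when each control replicate in turn was left out. The 17 tested genes whose windows hold neither element had a median of -0.03, with 2 that rose (Dnajb9 and Edem1), 6 that fell and 9 that did not pass. The other 3 tested genes had no window here and are in neither group: Hyou1, which rose (0.80), Ppic, which fell (-0.58), and Sil1 (-0.19), which did not pass. These are counts over a small list and were not tested. They group with the roles too, since 6 of the 8 genes with an element are chaperones, isomerases or the secreted luminal protein.

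**Figure D4:**
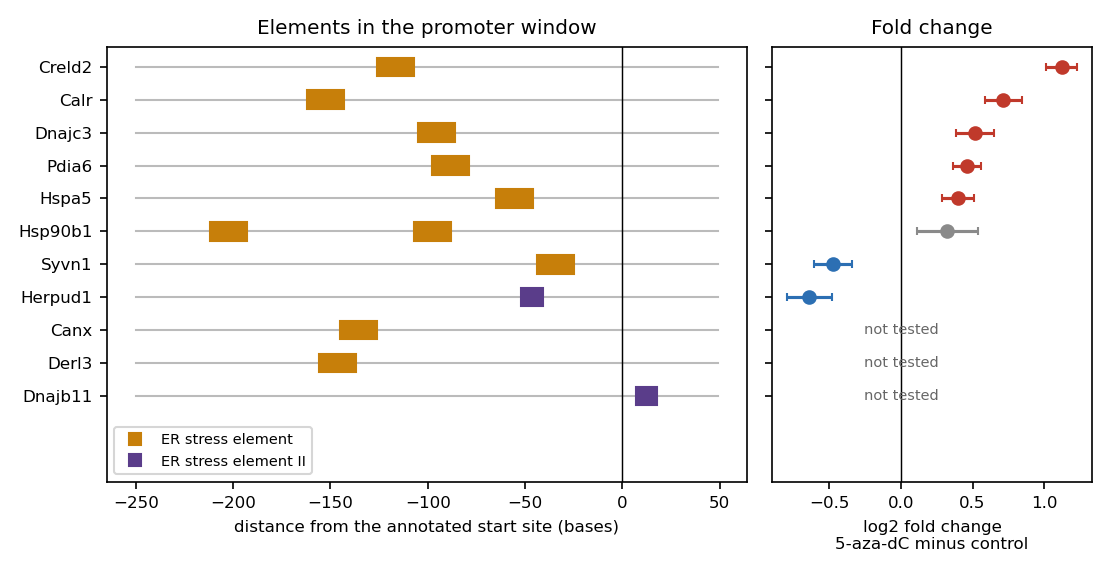
Left, the position of each ER stress element (orange) and element II (purple) in bases from the annotated start site, with the promoter window as a grey line; right, the log2 fold change of the same gene, 5-aza-dC minus control, with bars of 1 standard error. Creld2, Calr, Dnajc3, Pdia6 and Hspa5 hold an element and were higher, and Syvn1 and Herpud1 hold one and were lower, while Canx, Derl3 and Dnajb11 were not tested.

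Other genes of the same pathways were counted in 4 further lists, against 26.3% called higher and 25.7% lower over all genes tested. Of 25 other ER folding enzymes and chaperones tested (36 listed, 31 on the array), 3 rose (12%), 8 fell (32%) and 14 did not pass, with a median log2 fold change of -0.28. Those that fell include Fkbp7, another prolyl isomerase of the ER, at -1.63 ± 0.21 (3.09-fold lower, adjusted p = 0.00171, limma), Creld1, the relative of Creld2 that spans the membrane, at -1.36, and Serpinh1 (HSP47), the collagen chaperone, at -0.85. Those that rose were Txndc11 (0.55), the ER oxidase Ero1lb (0.52) and the thioredoxin-related Tmx1 (0.52). Ero1lb was detected on all 4 treated arrays but on 1 control array, and its value depends on the background: it was 0.29 with no background correction, 0.25 with an offset of 50 and 0.26 in the deposited values. The call of Txndc11 was lost without control replicate 1 (adjusted p = 0.0646), and that of Tmx1 without control replicate 1 (0.121), without control replicate 2 (0.0915) and with median scaling (0.0664), and the value of Tmx1 was 0.32 without 5-aza-dC replicate 1. Creld2 and Creld1 changed in opposite directions.

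Of 24 further genes of ER-associated degradation tested (30 listed, 27 on the array), 8 rose (33.3%), 3 fell (12.5%) and 13 did not pass, with a median of 0.16. Erlin1, which marks out the membrane site where the inositol trisphosphate receptor is degraded, rose by 1.07 ± 0.12 (2.09-fold, adjusted p = 0.00104, limma), and the ER ATPase Tor1a (0.62) and the Syvn1 cofactor Fam8a1 (0.59) rose with it. Erlec1, a lectin that binds mannose like Os9, fell by 1.03 on the log2 scale (2.04-fold lower, adjusted p = 0.00123, limma), and the ubiquitin ligases Rnf139 (-0.67) and Rnf5 (-0.63) were lower too. Without control replicate 1 only 2 of the 8 calls in the higher direction were left in this list, and without control replicate 2 there were 3. Tor1a and Rnf5 did not pass without control replicate 1 (adjusted p = 0.0519 and 0.0720), nor did Fam8a1 without control replicate 1 (0.0503) or control replicate 2 (0.0530). The value of Rnf139 was -0.43 with no background correction and -0.41 with an offset of 50 or in the deposited values.

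Among 26 genes of stress signalling and ER membrane transcription factors tested (33 listed, 29 on the array), 5 rose (19.2%), 7 fell (26.9%) and 14 did not pass, with a median of -0.09. Traf2, an adaptor that binds activated Ern1, rose by 1.02 ± 0.12 (2.03-fold, adjusted p = 0.00125, limma), Ppp1r15b, which directs dephosphorylation of the translation factor that Eif2ak3 acts on, by 0.94, and Tmem33 by 0.89. Creb3l1 (OASIS), an ER membrane transcription factor of collagen-secreting cells, was detected on 1 treated array and all 4 control arrays, and was called lower (adjusted p = 0.000243, limma). Since most treated arrays had it at background, the size of its change depends on the setting, with log2 fold changes of -1.38 as fitted, -0.82 with no background correction, -0.74 with an offset of 50 and -0.78 in the deposited values. Dab2ip (-0.67) and the p53 target Bbc3 (-0.65) were lower too. Dab2ip did not pass without control replicate 2 (adjusted p = 0.0553), and Bbc3 did not pass without control replicate 1 (0.0917), without control replicate 2 (0.0580) or with no detection filter (0.0515), and was -0.34 without 5-aza-dC replicate 1. Atf4 and Ddit3, the factors downstream of Eif2ak3, named here after their values were seen, had log2 fold changes of -0.28 (adjusted p = 0.198) and 0.31 (adjusted p = 0.137).

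Of 31 genes of translocation, signal peptide cleavage and N-glycosylation tested (36 listed, 34 on the array), 6 rose (19.4%), 8 fell (25.8%) and 17 did not pass, with a median of -0.14. The signal peptidase subunit Sec11c (1.00), the receptor subunit Srprb (0.63) and the BiP partner Sec63 (0.53) rose. The small membrane proteins Krtcap2 (-1.39 ± 0.43, adjusted p = 0.0376, limma) and Ssr4 (-1.05 ± 0.32, adjusted p = 0.036, limma) fell with large errors, and the signal recognition particle receptor Srpr fell by 0.71 (adjusted p = 0.00275, limma). Srprb and Srpr, the subunits of 1 receptor, changed in opposite directions. Without control replicate 1 this list had 1 gene called in each direction, and the calls of Srprb (adjusted p = 0.102), Sec63 (0.221), Krtcap2 (0.0610) and Ssr4 (0.103) were lost. Those of Srprb (0.0598) and Sec63 (0.0907) were also lost without control replicate 2, that of Sec63 with the replicate block (0.0554), and those of Sec11c (0.0504), Krtcap2 (0.0650) and Ssr4 (0.0673) with median scaling. Without 5-aza-dC replicate 1 Krtcap2 was -0.71 and Ssr4 -0.58.

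**Figure D5:**
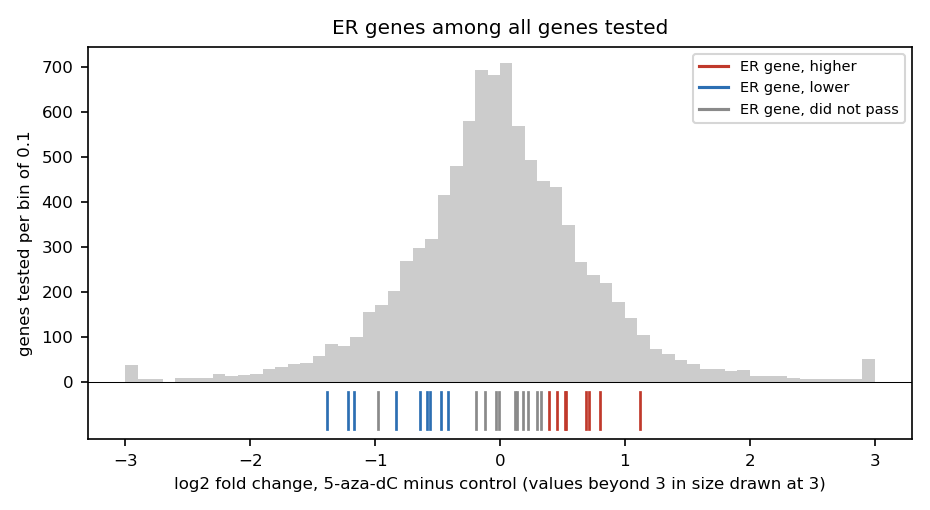
Histogram of the log2 fold change, 5-aza-dC minus control, of all 9502 genes tested (grey, number of genes per bin on the vertical axis), with the 28 ER genes as ticks below it, coloured by call. The ER genes lie on both sides of 0, between -1.38 and 1.12, within the bulk of all genes.

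The arrays as a whole were close within groups and apart between them. Between 12841 and 13595 probes were detected per array, the log2 levels of technical arrays correlated at 0.997 to 0.998, replicates of a group at 0.987 to 0.996 and arrays of different groups at 0.919 to 0.930. Markers of fibroblasts, all 9 on the array detected, had a summed signal of 16338 to 19035 with 5-aza-dC and 39162 to 42315 in the controls. Of these, 6 were lower (Col1a1, Col1a2, Col3a1, Dcn, Pdgfra and Pdgfrb) and 1 was higher (Thy1), while Vim and S100a4 did not pass. The mean signals of Col1a1, Col1a2 and Col3a1 were 1566, 1341 and 247 with 5-aza-dC and 9477, 9278 and 5141 in the controls. That of Vim was 12370 with 5-aza-dC and 12905 in the controls. The 5 epithelial markers summed to 1288 to 1577 with 5-aza-dC and 257 to 275 in the controls, and 4 of them were higher. The 5 endothelial markers summed to 266 to 286 with 5-aza-dC and 248 to 261 in the controls, with 3 undetected throughout, and the 4 of macrophages and blood to 186 to 205 with 5-aza-dC and 209 to 222 in the controls, with Ptprc, Adgre1 and Itgam undetected. Of the endothelial and blood markers, only Emcn (called higher) and Cd3e (called lower) could be tested. Whether these shifts bear on the ER genes was not tested, and in bulk RNA fewer cells of a type and less RNA per cell cannot be told apart. Dnmt1 itself was higher (0.85 ± 0.11, adjusted p = 0.00173, limma), and Trp53 had no listed probe.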

How the data were processed

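Per the labels and the study's methods, total RNA was amplified and hybridised to Illumina mouse bead arrays. Per the file headers, the deposited table gives for each array a raw mean bead intensity with its detection p-value, computed against the negative control beads. A second table deposited by the authors holds intensity values normalised with lumi, used here only as an alternative. The methods name a whole-genome array, but the probe table is of the related RefSeq array. The study's methods name the mm9 build, but the array tables hold no coordinates, and those of the promoter windows are of GRCm38.p6.

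Background correction and quantile normalisation used neqc (offset of 16) in limma 3.58.1 and R 4.3.3. A probe was kept if its detection p fell below 0.05 on 2 or more of the 8 arrays (14308 of 25697), and each gene was read at its brightest kept probe. Levels of different genes come from different probes and are not compared. Technical arrays were averaged to n = 2 a group, and 5-aza-dC was compared with control by a two-sided moderated test in limma (degrees of freedom 3.82 prior and 2 residual), adjusted over 9502 genes by Benjamini-Hochberg at 0.05. A positive log2 fold change means higher with 5-aza-dC, and its error is the standard error of the fit. On simulated data the fit recovered 0 of 50 genes changed 1.25-fold and 6 of 50 changed 1.5-fold. It recovered 39 of 50 changed 2-fold and 49 of 50 changed 4-fold. Far fewer genes changed in the simulation than were called here, so these shares do not carry over directly. A gene that did not pass may still have changed. Having only 2 biological replicates a group limits the precision.

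Symbols came from the probe table and RefSeq by Entrez identifier (23962 probes), by accession (9) or as given (7), and 1719 probes (6.69%) were unlisted. All 40 genes are accounted for. Values of every array are given for the 12 called genes with the largest fold changes, those above 2-fold first, and for the sensors, Xbp1, Hspa5 and Hsp90b1, and from the other lists up to 3 called genes in each direction are named. The genes, the lists and the tests were chosen with earlier results of these data known, so no list has a test of its own. The closing section gives 15 alternatives. Protein sequences were not analysed here.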

Additional observations from a re-analysis of the deposited data

How the results depend on the processing

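Under 15 alternatives, 7 of the 17 called ER genes kept their call throughout, Creld2, Hyou1 and Edem1 as higher and Fkbp14, Os9, Xbp1 and Pdia5 as lower, while 10 lost it under at least 1, all of these without control replicate 1 or 2. Leaving out 1 replicate at a time gave 3 to 10 ER genes higher and 4 to 10 lower, a median of their log2 fold changes of -0.05 to 0.18, and 1568 to 2943 genes higher over all genes. A group of 1 sample was then assumed to vary like the other, so without a control replicate a gene's own spread came from the 5-aza-dC pair alone. A call lost in that way need not mean a different fold change. In the other lists these counts ran over 1 to 5 higher and 5 to 11 lower (folding), 2 to 11 and 2 to 5 (degradation), 3 to 8 and 2 to 9 (signalling), and 1 to 6 and 1 to 12 (translocation and glycosylation). These and the blocked counts of the other lists were added after seeing the data. With no detection filter 5 other folding genes were higher. Sel1l reversed, to -0.27, with the mean of its probes in place of the brightest, while no called ER gene changed sign under any alternative. Fewer samples or another probe aside, the cause was not tested.

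The labels number the replicates alike in both groups, but same-numbered replicates tended to deviate in opposite directions (r = -0.63 across genes). With 2 replicates a group, this cannot show whether same-numbered samples were handled together. With the replicate block 7 ER genes were higher and 5 lower, with the calls of Hspa5, Ppic, Eif2ak3, Herpud1, Syvn1 and Vimp lost, and 3 higher and 5 lower in the translocation list. The crossed pairing as a block, chosen after seeing the data, gave 9 higher and 10 lower.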
